A study of Danio rerio with 40 samples.

Results

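The piRNA clusters described here are known clusters of the piRNA Cluster Database in the zebrafish (Danio rerio) sperm small RNA table. They are those not placed on chromosome 4, called off chromosome 4 below. They were picked by name and place alone, as the table rows without a strand direction in the name, leaving out those of chromosome 4, and there were 374 of them among 1434 clusters. The other rows were 158 database clusters on chromosome 4 and 902 clusters predicted from the study's own reads.

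PIWI-interacting RNAs (piRNAs) are small RNAs of the germ line that guide PIWI proteins to complementary transcripts, most of all those of transposable elements. They are cut from long precursor transcripts, and the stretches of genome that give these precursors are called piRNA clusters. In zebrafish the long arm of chromosome 4 is rich in such clusters, and the PIWI proteins Ziwi and Zili act in the germ cells of both sexes. A cluster read here is any sequenced small RNA that aligned to the cluster without mismatch or gap, since no filter on read length is stated. A read that fits several clusters may be counted in each, so the shares below are of summed cluster counts, not of separate reads. These sums averaged more per library than the mean read depth per sample that the study states.

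Sperm came from wild-type AB males that spent 2 weeks in a High tank, shared by 2 males with 1 female, or in a Low tank, shared by 1 male with 2 females, and 2 more weeks in a tank of the other kind. High1 and Low2 are the first and second samplings of one line of males, the High-first line, while Low1 and High2 are those of the Low-first line. The table held 6 libraries of each of these 4 groups, 24 in all, and each is named by group and title number, as in High1_1. Groups follow the letter codes of the sample titles, and the treatment field of the public record names another treatment for 13 of the 24 libraries. Cluster reads per library ranged from 5983071 in Low2_3 to 56435023 in High1_1. On the first principal component of the 374 clusters, which held 31.9% of their variance, High1_1 (-15.3) and Low2_3 (-16.1) stood apart from the other libraries (-5.35 to 7.25). Several results that rest on them are given with and without them. Both belong to sequencing pool 2 of 5. Positions below are on GRCz11, as the chromosome name versions show, and are written as the table has them, with starts counted from 0.

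The known clusters off chromosome 4 were spread over 24 chromosomes, which held 352 of them, and over 19 unplaced scaffolds, which held 22. The chromosome of an unplaced scaffold is not known, so for these 22 a place on chromosome 4 is not excluded. The study states that it left out loci on unplaced scaffolds, yet the deposited values include these 22. Their median length was 7.99 kb. The longest, chr8:45430128-45730021, spanned 299.9 kb, and the shortest, chr10:12295026-12298026, spanned 3 kb. All but 1 (373) had reads in every library, 340 had at least 10 reads in every library, and the single value at 0 was in Low2_3, the shallowest library. No 2 of them held the same values, whereas 71 of all 1434 clusters shared their values with another. Among the 352 clusters on chromosomes, 92 (26.1%) overlapped a cluster predicted from these libraries by at least 1 base. For the 22 on scaffolds the overlap was not examined, because the predicted clusters carry scaffold names of another kind.

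Together the 374 clusters held 45.0% ± 12.2 (SD, n = 24) of all cluster reads, from 22.8% in Low2_6 to 64.8% in High1_3. The 158 database clusters of chromosome 4 held 40.5% ± 11.4 and the 902 predicted clusters 14.5% ± 4.21 (SD, n = 24). A few clusters carried nearly all of this share. Of the mean share of the 374, the leading cluster held 46.1%, the first 2 held 76.5% and the first 3 held 84.5%. The first 5 held 89.3% of it and the first 10 held 92.1%. Within single libraries the leading cluster held 2.23% to 76.0% of the reads of the 374, with a mean of 40.5%. At the other end, 296 clusters each held under 0.01% of the cluster reads on average. The cluster with the fewest reads, NW_001878118.5:130001-135683 on a scaffold, had a median of 14.0 normalised reads, that is, reads divided by the library's size factor.

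**Figure D1:**
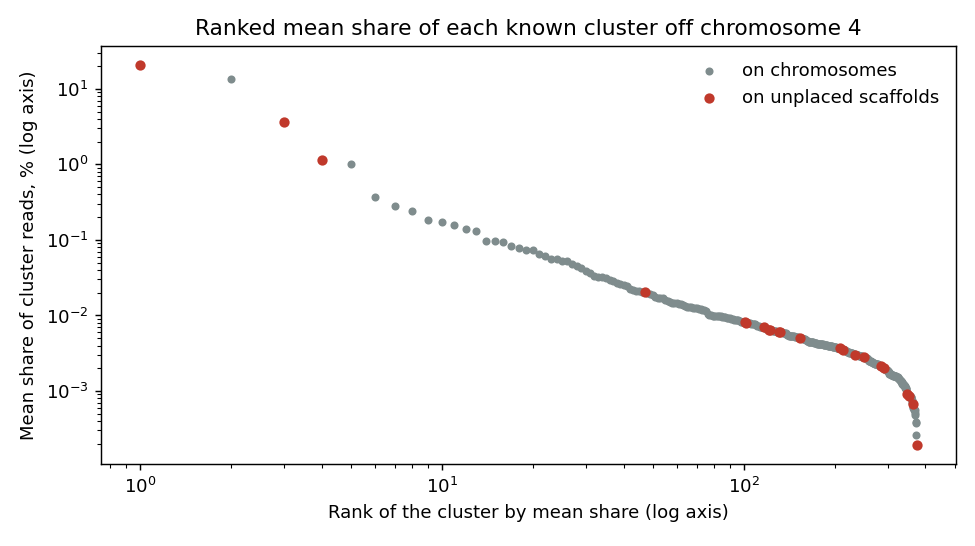
Mean share of all cluster reads (percent, log axis, mean of 24 libraries) of each of the 374 known clusters off chromosome 4, against its rank (log axis), with clusters on unplaced scaffolds in red. The points drop from 20.8% at rank 1 and 13.7% at rank 2 to about 1% at rank 5, and 3 of the first 4 lie on scaffolds.

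The leading cluster was NW_003336940.1:509-10420, 9.91 kb on an unplaced scaffold. It held 20.8% of all cluster reads on average, and its share was also the most variable between libraries. It ranged in High1 from 0.994% through a median of 17.8% to 49.3%, in Low2 from 0.638% through 26.2% to 32.7%, in Low1 from 3.58% through 14.3% to 42.7%, and in High2 from 2.66% through 22.2% to 43.6%. Each group thus held libraries near the floor and libraries near the top, and the 4 groups overlapped over most of the range. Of the 3 clusters with the widest spread on the log2 scale among the better covered ones, this was one. Its log2 difference between High2 and Low1 was 0.24 (SE 1.05, limma adjusted p = 0.936).

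The low libraries of the leading cluster came from every group and from 2 of the 5 sequencing pools. All 4 libraries of pool 2, 1 from each group, lay between 0.638% and 3.58%. In pools 1, 3 and 4 the share ran from 9.99% to 49.3%, while pool 5 held both low libraries (High1_7 at 2.50% and Low2_6 at 3.33%) and high ones (up to 43.6% in High2_10). This cut across the treatments, because each pool 2 library is of another group. Whether the pool sets the share was not tested.

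**Figure D2:**
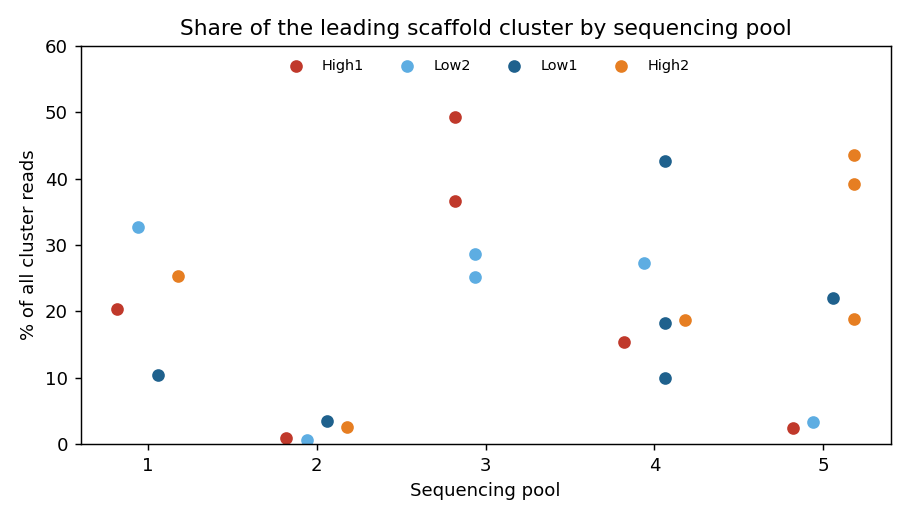
Share of all cluster reads (percent) held by the leading scaffold cluster in each of the 24 libraries, by sequencing pool and coloured by group. The 4 pool 2 libraries lie between 0.638% and 3.58%, and 2 of the 6 pool 5 libraries lie at 2.50% and 3.33%.

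The second cluster was chr7:4067-8848, 4.78 kb at the very start of chromosome 7, with a mean share of 13.7%. It was steadier than the leading one. Its share ran in High1 from 6.71% through a median of 11.8% to 22.8%, in Low2 from 9.81% through 11.9% to 22.6%, in Low1 from 9.50% through 15.7% to 18.4%, and in High2 from 7.46% through 14.2% to 16.1%. The 2 highest values were those of High1_1 and Low2_3, the libraries that stand apart, and the groups overlapped with and without them. Per kb it was the densest of the 374, with a median of 686962 normalised reads per kb against 469940 for the leading cluster and 119 for the median of the 374.

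Chromosome 7 owed its place to this cluster alone. Its 17 clusters had a mean share of 14.1% of the cluster reads, and chr7:4067-8848 made up 97.2% of that mean. The next cluster of the chromosome, chr7:5197841-5211727, held 0.184%. In normalised reads it ranged from 27998 through a median of 65872 to 98798 in Low1 and from 18816 through 30140 to 45882 in High2. High2 lay lower with an overlap, by -0.88 on the log2 scale (SE 0.32, unadjusted p = 0.0107, limma adjusted p = 0.207).

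The next 2 clusters were again on scaffolds. NW_003336678.1:0-33253, 33.3 kb from the first base of its scaffold, held 3.62% on average and ranged from 0.415% in High1_4 to 12.2% in Low1_7. Its Low1 values (2.22% through a median of 3.72% to 12.2%) reached above those of High1 (0.415% through 2.96% to 6.11%), with a High1 against Low1 log2 difference in normalised reads of -1.23 (SE 0.57, unadjusted p = 0.0428, limma adjusted p = 0.753). NW_001884427.4:76878-82862 held 1.14% and was the evenest of the 5 leading clusters, from 0.719% in High1_4 to 1.94% in High2_7. The 22 scaffold clusters together held 25.6% ± 15.1 (SD, n = 24) of all cluster reads, or 56.9% of the mean share of the 374. Yet the 19 of them outside these 3 held at most 0.0204% each.

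The fifth cluster, chr16:15774355-15790983, was the only other one above 1%, at 1.02% (0.572% in High2_10 to 1.66% in Low2_3). It made up 82.2% of the 1.24% held by the 14 clusters of chromosome 16. The remaining clusters of the first 10 held between 0.175% and 0.371% each on average. They were chr21:35899085-35910926 (0.371%), chr18:30080013-30090025 (0.280%), the longest cluster chr8:45430128-45730021 (0.245%), chr7:5197841-5211727 (above) and chr17:49536022-49611025 (0.175%). The 300 kb span of the longest cluster did not place it near the top per kb, and its level was among the steadiest, from 49815 normalised reads in Low2_3 to 77338 in High1_6. The shortest cluster, chr10:12295026-12298026, ranged from 489 normalised reads in High1_1 through group medians of 1224 to 1456 up to 1523 in Low1_6.

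Leading clusters moved together in part across the 24 libraries. On the deposited log2 scale, chr7:4067-8848 and chr16:15774355-15790983 had a Pearson correlation of 0.91 (Spearman 0.76), and chr7:4067-8848 reached 0.94 (Spearman 0.85) with the leading database cluster of chromosome 4. High1_1 and Low2_3 were at the top for both the chromosome 7 and the chromosome 4 cluster, and without them the Pearson values were 0.79 and 0.85 over 22 libraries. The leading scaffold cluster had values of -0.19 with chr7:4067-8848 (Spearman 0.04) and -0.36 with that chromosome 4 cluster (Spearman -0.16). These turned to 0.29 and 0.03 without the 2 libraries. In shares of cluster reads the last 2 pairs had -0.64 and -0.84, and -0.53 and -0.85 without the 2 libraries, where the shares of a library add up to a fixed total. The correlations are descriptions over libraries whose values of 2 clusters share a size factor.

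By chromosome, the order of the shares did not follow the number of clusters. Chromosome 18 had the most, 41, and held 0.712% ± 0.181 (SD, n = 24), while chromosome 8 with 28 clusters held 0.603% ± 0.222 and chromosome 21 with 12 held 0.511% ± 0.219. Chromosome 17 held 0.452%, and each of the remaining chromosomes held between 0.00424% (chromosome 11, 2 clusters) and 0.230% (chromosome 5, 14 clusters). Neighbours in that order overlapped in their ranges over libraries, apart from the step between chromosome 7 and chromosome 16. Clusters in the outer 10% at either end of a chromosome were 53 and held 14.7% of cluster reads, nearly all of it from chr7:4067-8848. Their median density was 159 normalised reads per kb against 115 for the 299 further inside.

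The part of a chromosome's mean share held by its leading cluster ran from 19.0% on chromosome 1 to 97.2% on chromosome 7. On chromosome 21 the leading cluster held 72.5% of the chromosome's mean share, on chromosome 25 chr25:12563346-12569838 held 68.1%, on chromosome 19 chr19:26775001-26796930 held 61.8% and on chromosome 3 chr3:52957145-52964767 held 52.2%. The part was smallest on chromosome 1, where the leading one of 18, chr1:57033128-57041882, held 19.0%. On chromosome 14 the leading one of 23, chr14:13087048-13113014, held 19.6%. The part also depends on the number of clusters, so it does not rank the chromosomes by evenness. Chromosome 18 lay between, with 39.4% of its mean share in chr18:30080013-30090025. That cluster ranged from 29080 through a median of 58956 to 100700 normalised reads in High1, from 35837 through 89920 to 245344 in Low2, from 37151 through 50072 to 204459 in Low1 and from 45068 through 67710 to 229747 in High2, so the 4 groups overlapped.

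**Figure D3:**
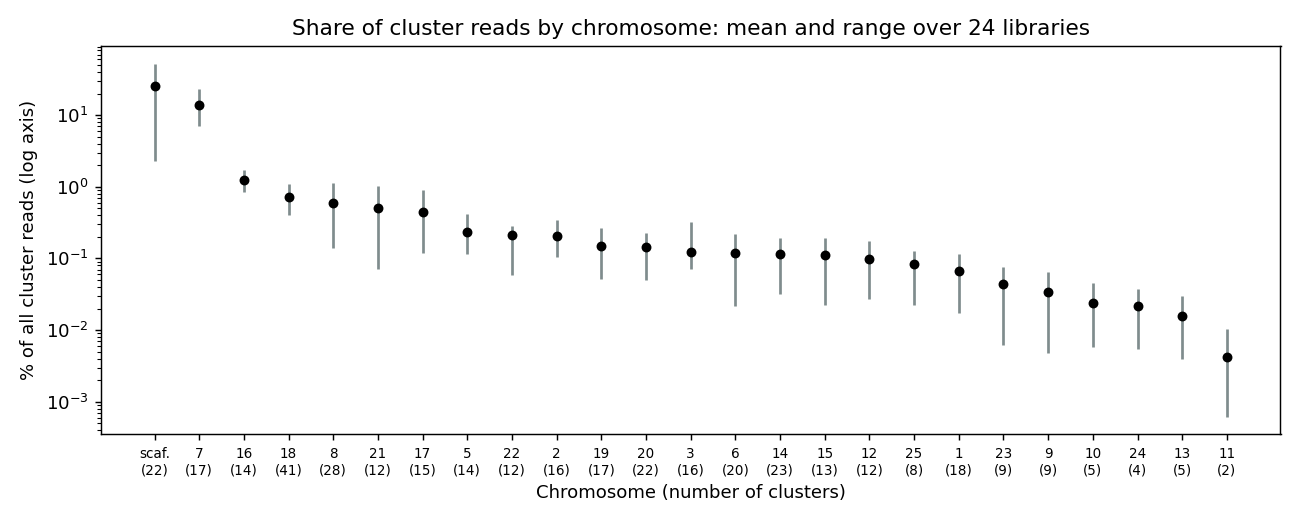
Share of all cluster reads (percent, log axis) held by the known clusters of each chromosome and of the unplaced scaffolds (scaf.), with the number of clusters in brackets, as the mean (point) and the range (line) over 24 libraries. The scaffolds (25.6%) and chromosome 7 (14.1%) lie about 10 times or more above all other chromosomes, and chromosome 18, with the most clusters, holds 0.712%.

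Sorted by length, the 125 shortest clusters (up to 6.66 kb) held 15.5% of all cluster reads, the 124 of middle length 0.742% and the 125 longest (9.76 kb and more) 28.7%, where the first and last figures are set by the leading clusters. Their median densities were close, at 115, 118 and 127 normalised reads per kb. Short clusters varied more between libraries, with a median SD on the log2 scale of 0.48 against 0.38 for the longest.

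The known clusters off chromosome 4 were shorter than the predicted ones, with a median of 7.99 kb against 11.0 kb for the 751 predicted clusters off chromosome 4, and 8.83 kb for the database clusters of chromosome 4. The median density of the 374, 119 normalised reads per kb, compares with 128 for the database clusters of chromosome 4 and 125 for the 751 predicted clusters off chromosome 4. On the log2 scale of the median level per kb, the known clusters were lower than the predicted ones off chromosome 4 by -0.10 (SD over libraries 0.24, lower in 12 of 24 libraries, two-sided permutation p = 0.0491 by sign flips over 24 libraries). Leaving out predicted clusters on alternative haplotypes gave -0.12 (p = 0.0159, same test, lower in 14 of 24 libraries). The median level per kb of the known clusters was lowest in High1_1 (6.44) and Low2_3 (6.42). The difference was not computed without these 2 libraries. With the lowest 25% of clusters dropped the difference turned to 0.12 (p = 0.00897, same test). That filter used the level in these same libraries and left 246 of the 374 known and 590 of the 751 predicted clusters. It thus took out a larger part of the known ones, so the differences with and without that filter are of unlike sets. Their spread between libraries was wider, with a median SD of 0.43 on the log2 scale against 0.33 for the predicted clusters off chromosome 4, as a description. Where at least 90% of a known cluster lay inside a predicted one (71 pairs), the log2 levels of the pair had a median correlation of 0.80 over the 24 libraries, from -0.60 to 1.00. That correlation exceeded 0.9 in 25 pairs and lay below 0 in 12. The predicted row of such a pair can also count reads from outside the known cluster.

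The share of reads held by the known clusters off chromosome 4 was then compared between groups. In these and all later comparisons, pairs within a line change treatment and sampling period together, and the 2 cannot be told apart. Pairs within a period change treatment and line together. High2 against High1 and Low2 against Low1 change period and line but not treatment. It was 43.4% ± 15.1 in High1, 43.3% ± 13.9 in Low2, 44.9% ± 11.1 in Low1 and 48.4% ± 10.9 in High2 (SD, n = 6 each). The lowest, median and highest values were 24.8%, 43.3% and 64.8% in High1, 22.8%, 50.5% and 54.8% in Low2, 32.3%, 43.2% and 63.4% in Low1, and 32.1%, 46.8% and 62.3% in High2. The 4 groups overlapped over nearly their whole range. High2 against Low1, the comparison within the Low-first line, differed by 3.46 percentage points (exact permutation p = 0.591, two-sided). Low2 against High1, within the High-first line, differed by -0.0771 points (exact permutation p = 0.998). Over the 7 comparisons, 6 pairs of groups and High against Low, the differences ran from -1.65 to 5.12 points and no permutation p fell below 0.487, with adjusted values from 0.980 to 0.998. Within the pools, High minus Low was 1.27 points in pool 1, 0.246 in pool 2, 9.31 in pool 3, -7.46 in pool 4 and 10.5 in pool 5, against 1.77 over all libraries, with 2 to 4 libraries on each side. The sign of 6 of the 7 differences turned under at least 1 alternative, High2 against High1 being the exception.

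**Figure D4:**
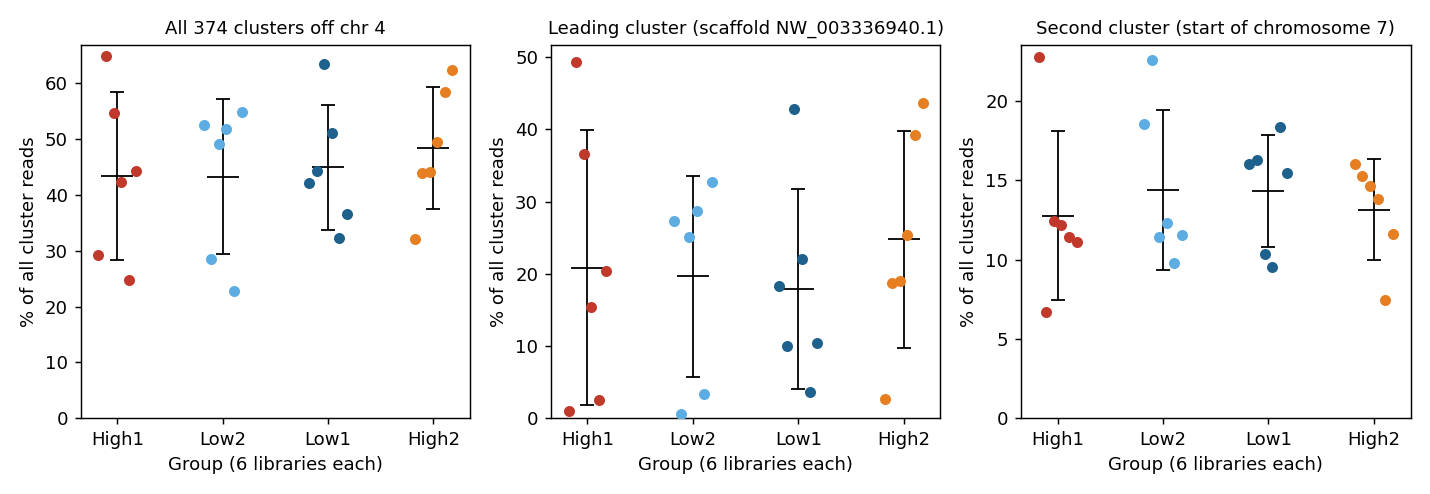
Share of all cluster reads (percent) held by all 374 known clusters off chromosome 4 (left), by the leading scaffold cluster (middle) and by the cluster at the start of chromosome 7 (right), with 1 point per library, the mean (wide bar) and the SD (whiskers, n = 6). The groups overlap in each panel, and the group means of the left panel lie between 43.3% and 48.4%.

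Chromosome by chromosome, the summed level of the known clusters also showed no difference past the adjusted threshold. Of 175 tests (24 chromosomes and the scaffolds in 7 comparisons), 8 (4.57%) had an unadjusted permutation p under 0.05, and the smallest adjusted p was 0.189. That value belonged to chromosome 5, where High2 was lower than Low2 by -0.46 and lower than High1 by -0.37 on the log2 scale, both with an exact permutation p of 0.00216, the smallest that 6 against 6 libraries can give. In both cases every High2 library lay below every library of the other group. As a mean share of cluster reads, chromosome 5 held 0.228% in High2, 0.225% in Low2, 0.254% in High1 and 0.215% in Low1. The mean share was thus not lower in High2 than in Low2. The 14 clusters of chromosome 5 were led by chr5:501425-598902, which held 61.5% of their mean share.

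Cluster by cluster, limma called none of the 374 at an adjusted p under 0.05 in any comparison, and the share called among all 1434 clusters was 0 as well. At an unadjusted p under 0.05, High2 against Low1 had 43 of the 374 (28 higher and 15 lower in High2), or 11.5% beside 14.1% of all clusters. High2 against Low2 had 45 (36 higher, 9 lower) beside a background of 10.2%, and High2 against High1 had 33 (15 higher, 18 lower) beside 8.16%. Low2 against High1 had 17 beside 2.51%, High1 against Low1 had 21 beside 6.35%, and Low2 against Low1 had 18 beside 4.74%. High against Low had 36 (26 higher, 10 lower) beside 8.79%, and the difference of the High and Low effect between the 2 lines had 16 beside 5.93%. Single libraries moved several of these counts, together with those over all clusters. Without High1_1, High1 against Low1 had 57 of the 374 beside 14.6% of all clusters, Low2 against High1 had 36 beside 5.58%, High2 against Low2 had 77 beside 15.0%, High2 against Low1 had 66 beside 18.3%, High against Low had 102 beside 21.6%, and High2 against High1 fell to 18 beside 5.44%. Without Low2_3, Low2 against High1 had 8 beside 1.26%, High2 against Low2 had 22 beside 5.65% and High against Low had 21 beside 5.44%, while High2 against Low2 had 91 beside 18.5% without Low2_6. High against Low also had 61 beside 15.7% without Low2_6 and 21 beside 5.23% without High1_6. Without Low1_4 it had 21 beside 73 of all 1434 clusters, and High2 against Low1 had 26 beside 9.21%. Without Low1_7, High1 against Low1 had 12 beside 4.81% and Low2 against Low1 had 11 beside 3.63%, and the latter had 11 beside 2.65% without Low1_5. High2 against Low1 had 27 beside 9.14% without Low1_5, High1 against Low1 had 13 beside 4.81% without High1_3, Low2 against High1 had 9 beside 1.67% without High1_4 and High2 against Low2 had 29 beside 7.46% without High2_9. With both High1_1 and Low2_3 left out, the counts were 77 beside 18.1% in High1 against Low1, 20 beside 2.93% in Low2 against High1, 85 beside 22.0% in High2 against Low1 and 78 beside 16.7% in High against Low. With all 24 libraries, the counts among the known clusters were near the background or below it in most comparisons. The largest excess over the background was that of Low2 against High1, at 4.55% beside 2.51%.

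The split of higher and lower clusters was also taken under other scalings. More of the 374 clusters lay above (254) than below (120) the Low1 level in High2, and their median difference was 0.14. Over all 1434 clusters the split was 740 to 694 with a median of 0.01. The 158 database clusters of chromosome 4 leaned the same way as the 374, 105 to 53 with a median of 0.09. The 902 predicted clusters leaned the other way, 381 to 521 with a median of -0.06. Centring each library on the median of all clusters gave 273 to 101 for the 374. Of those with an unadjusted p under 0.05 there were then 37 higher and 13 lower. Centring on the median of the 374 gave 196 to 178, with 16 higher and 20 lower, and moved the median of all clusters to -0.12. This centring holds the median of the 374 level between libraries, so its near-even split was set in advance and shows nothing about direction. In High against Low, 26 of the 374 were higher and 10 lower at an unadjusted p under 0.05, beside 39 higher and 87 lower among all 1434 clusters. With that centring these counts became 11 higher and 14 lower. With the lowest 25% of clusters dropped they were 9 higher and 10 lower, beside 100 among all clusters kept. Counts over all clusters at an unadjusted p under 0.05 are not given here for either centring, so those splits have no background beside them. Low2 against High1 pointed the other way, with 150 higher and 224 lower in Low2 and a median of -0.07.

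The clusters with the smallest p in High2 against Low1 were on chromosomes 14, 18 and 20. chr14:13384000-13389778 ranged from 1810 through a median of 2644 to 3608 normalised reads in Low1 and from 1286 through 1727 to 2065 in High2. High2 lay lower with an overlap, by -0.68 on the log2 scale (SE 0.18, limma adjusted p = 0.156). chr18:33974002-33981018 ranged from 452 through 606 to 861 in Low1 and from 757 through 885 to 980 in High2, a log2 difference of 0.50 (SE 0.14, limma adjusted p = 0.156). It was also among the 3 smallest p-values for High2 against High1, at 0.44 (limma adjusted p = 0.403), where all 6 High2 libraries lay above all 6 High1 libraries (585 through 611 to 745). chr20:15827011-15836010 ranged from 1317 through 1868 to 2963 in Low1 and from 946 through 1054 to 1694 in High2, a log2 difference of -0.77 (SE 0.22, limma adjusted p = 0.156).

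A cluster on chromosome 12 had the smallest p of all 1434 clusters in High2 against High1. chr12:14899002-14913024, which the study names, ranged from 1008 through a median of 1048 to 1465 normalised reads in High1, from 1089 through 1317 to 1490 in Low2, from 967 through 1206 to 1783 in Low1 and from 1224 through 1790 to 2325 in High2. High2 reached above the other 3 groups, with its lowest library, High2_6, inside their ranges. High2_7 (1638) and High2_8 (1635) also lay inside the range of Low1, whose highest library was Low1_7 (1783). The log2 differences were 0.62 against High1 (SE 0.16, limma adjusted p = 0.403) and 0.51 against Low1 (SE 0.16, limma adjusted p = 0.174). The other cluster the study names, chr22:32643430-32648896, had 1 library far above the rest, High1_1 at 14522 normalised reads against 223 to 1691 in the other 23. Its log2 difference in High2 against High1 was -1.47 (SE 0.57, unadjusted p = 0.0166, limma adjusted p = 0.519), and -0.81 without High1_1, a value computed after the data were seen and not tested. The study reports this cluster as lower in sperm of High males. Here High against Low was 0.02 (SE 0.40, limma adjusted p = 0.994). High1 against Low1 was 0.82, while High2 was lower than Low1 by -0.64 and lower than Low2 by -0.79. High against Low and High1 against Low1 both include High1_1 and were not computed without it. Neither value can therefore be set against the study's report.

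Chromosome 19 gave the clusters with the smallest p in 2 comparisons. chr19:16906265-16910931 ranged from 76.4 to 115 normalised reads in Low1 and from 32.0 to 210 in Low2, and from 111 to 237 in High1 and from 96.3 to 288 in High2. The value of 32.0 is that of Low2_3, with a size factor of 0.0624, and so rests on few reads. The next lowest Low2 value was 92.9, in Low2_9. The log2 difference of High against Low was 0.82 (SE 0.22, limma adjusted p = 0.551). chr19:16984097-16991027 was tightly grouped, from 367 through 391 to 418 in High1 and from 249 through 303 to 384 in Low2. Low2 lay lower than High1 by -0.35 (SE 0.12, limma adjusted p = 0.999), and High2 (320 through 399 to 457) was higher than Low2 by 0.37 (SE 0.12, limma adjusted p = 0.400). Low2_3, the shallowest library, was the highest of the 6 Low2 values at 384.

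The other clusters with the smallest p-values had log2 differences of 0.32 to 1.56 in size, none with an adjusted p under 0.05. In Low2 against High1 these were chr20:55027004-55035961 (-0.41) and chr17:45193023-45201010 (-0.69). In High1 against Low1 they were chr7:2885044-2893968 (0.43), chr20:12194045-12201974 (0.68) and chr18:32777075-32792025 (0.49). chr7:2885044-2893968 had High1 values of 437 to 526 normalised reads above all Low1 values of 310 to 412. In High2 against Low2 they were chr14:10245038-10251014 (0.62) and chr25:27671331-27689675 (0.67), with all 6 High2 values of the latter (1575 to 2076) above all 6 Low2 values (513 to 1507). In High2 against High1 the remaining one was chr18:33101002-33106880 (0.74). In Low2 against Low1 they were chr8:48673650-48677506 (0.67), chr18:32777075-32792025 (0.49) and chr12:24311258-24317945 (1.56). In High against Low they were chr18:32561068-32568584 (0.48) and chr8:45224000-45238963 (0.32).

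Besides the leading scaffold cluster, 2 clusters varied most widely between libraries among those in the upper 75% by mean level. chr19:10803053-10812792 ranged from 119 normalised reads in Low1_6 to 3723 in Low2_5. Its Low1 values ran from 119 through a median of 253 to 975, its High1 values from 178 through 1403 to 3230 and its Low2 values from 178 through 1780 to 3723, with an overlap in each case. In High2 it fell into low libraries (184 to 251 in 3 of them) and high ones (1698 to 2390 in the other 3). The log2 differences were 2.27 for Low2 against Low1 (SE 0.78, limma adjusted p = 0.770) and 2.08 for High1 against Low1 (SE 0.78, limma adjusted p = 0.753). chr15:17280119-17284933 ranged from 218 in Low1_4 to 3444 in Low2_6, with High1 at 453 to 2654 and High2 at 297 to 2228. Its log2 differences between groups were at most 0.30 in size.

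Known clusters lay close together in several places. Chaining clusters at most 500 kb apart gave 14 neighbourhoods of 5 or more, with 118 of the 352 chromosome clusters, and 139 had no neighbour. The most populous was chr18:31965051-33981018, where 28 clusters lay within 2.02 Mb and held 0.277% of cluster reads. Several clusters named above lie in it. Its mean log2 level ran from 10.20 to 10.39 in Low1 and from 10.50 to 10.71 in High2, so every High2 library was above every Low1 library. As group means it was 10.29 ± 0.08 in Low1, 10.58 ± 0.08 in High2, 10.47 ± 0.30 in High1 and 10.43 ± 0.16 in Low2 (SD, n = 6). High1_1 at 9.90 and Low2_3 at 10.1 were the lowest libraries of their groups. Of its 28 clusters, 23 were higher in High2 than in Low1, with a median log2 difference of 0.39, and 9 (8 higher, 1 lower) had an unadjusted p under 0.05 beside 14.1% of all clusters. The neighbourhood was singled out after its values were seen and has no test of its own.

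**Figure D5:**
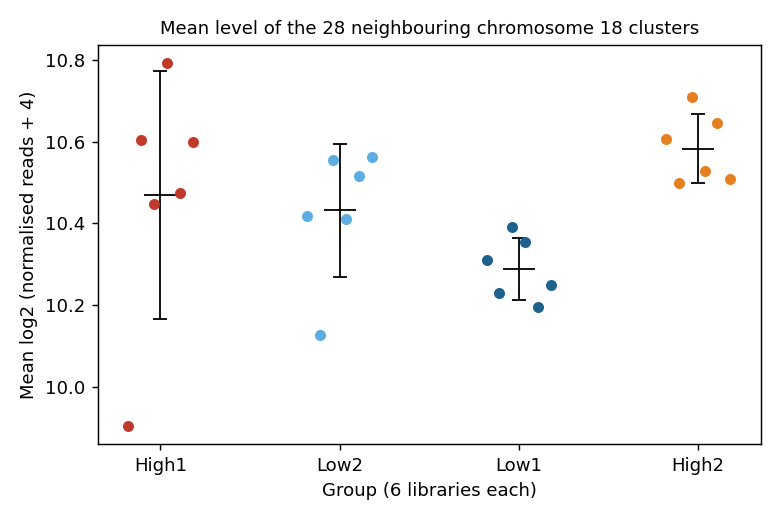
Mean level on the log2 scale (log2 of normalised reads plus 4, axis not starting at 0) of the 28 neighbouring known clusters of chromosome 18, with 1 point per library, the mean (wide bar) and the SD (whiskers, n = 6). The 6 High2 libraries (10.50 to 10.71) lie above the 6 Low1 libraries (10.20 to 10.39), High1 spans both ranges, and Low2 runs from 10.13 to 10.56.

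The other neighbourhoods behaved in different ways. In chr14:12866008-13664335, with 10 clusters, 5 were higher and 5 lower in High2 than in Low1, and the group means of the log2 level lay between 9.66 and 9.82. In chr6:22787001-23517012 all 8 clusters were higher in High2 than in Low1 (median 0.30), of which 2 had an unadjusted p under 0.05, and 5 of the 8 had one in High2 against Low2 (all higher, beside 10.2% of all clusters). The log2 level there was 9.82 ± 0.23 in High2 and 9.49 ± 0.29 in Low2 (SD, n = 6), and the clusters tended to move together, with a median pairwise correlation of 0.52 over the 24 libraries. In chr8:38909096-39583955, also with 8 clusters, that correlation was -0.19 and the group means lay between 9.90 and 9.98. In chr19:16657062-17109733, which holds both chromosome 19 clusters with a small p, 7 of 8 were higher in High than in Low, 3 of them with an unadjusted p under 0.05 beside 8.79% of all clusters.

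Of the 14 neighbourhoods, 3 held more than 0.3% of the cluster reads. That of the fifth cluster, chr16:15644338-15973989, held 1.03% with 5 clusters, and High2 had the lowest mean log2 level (10.23 ± 0.21) and High1 the highest (10.54 ± 0.21, SD, n = 6). That of the longest cluster, chr8:44486007-45730021, held 0.449% with 7 clusters, all 7 of them higher in High2 than in Low1 (median 0.29, 3 with an unadjusted p under 0.05 beside 14.1% of all clusters). The third, chr18:29577030-30090025, held 0.322% with 7 clusters. Its log2 level was 11.16 ± 0.30 in High2, 10.89 ± 0.18 in Low1, 10.48 ± 0.50 in High1 and 10.47 ± 0.50 in Low2 (SD, n = 6), and 5 of the 7 had an unadjusted p under 0.05 in High2 against Low2, all higher, beside 10.2% of all clusters. The lowest libraries were High1_3 at 9.64 and Low2_4 at 9.65, with the other 22 between 10.17 and 11.53. Neighbouring clusters may share reads, so their counts are not separate observations.

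Under other fits some of these clusters passed the adjusted threshold. With only the Low1 and High2 libraries in the fit, limma called 20 of the 374 in High2 against Low1 (5.35%), 13 higher and 7 lower in High2, beside 3.84% of all clusters. Of those 20, 8 were on chromosome 18 (7 higher), 3 on chromosome 17 (all lower) and 2 on chromosome 20. With High1_1 and Low2_3 left out, which was chosen after the data were seen, 18 were called (10 higher, 8 lower) beside 3.77% of all clusters, and 15 of them were among the 20. The same fit called 5 in High1 against Low1, all higher in High1 and 3 of them on chromosome 18, beside 0.628%. With all 4 pool 2 libraries left out, 7 were called in High2 against Low1 (2 higher, 5 lower) beside 2.23%. A set of 6 clusters was called in all 3 of these fits for High2 against Low1. One of the clusters called with only the compared groups, chr18:33101002-33106880, ranged from 345 through a median of 374 to 461 normalised reads in Low1 and from 492 through 667 to 847 in High2, without overlap (log2 difference 0.71, SE 0.14, limma adjusted p = 0.0324 in that fit). Another, chr20:17034025-17042856, ranged from 1542 through 1729 to 2315 in Low1 and from 950 through 1043 to 1327 in High2, again without overlap and in the other direction (-0.73, SE 0.12, limma adjusted p = 0.0194 in that fit). With the 4 groups in one fit, neither passed the adjusted threshold. The clusters on chromosome 17 lay at chr17:40213094-40224413, chr17:40648057-40747868 and chr17:40817625-40825762, and all 3 were lower in High2.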

How the data were processed

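The authors trimmed the sperm small RNA reads, counted per cluster those that PatMaN placed without mismatch or gap on 532 database clusters or on 902 clusters that proTRAC predicted on GRCz11. A read that fits several clusters may be counted in each. The submitters' processing notes name GRCz10 and DESeq2. What the authors deposited is log2 of reads divided by a library size factor, plus 4, as the values themselves show, and whole reads were recovered for 34416 of 34416 values (100%, within 0.05 of a whole number). Count models were not the main test. No molecular identifiers are stated, and the effect of depth on the values was not tested.

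Differences were tested with limma 3.58.1 in R 4.3.3 (trend, 4 groups in one fit, two-sided, Benjamini-Hochberg over 1434 clusters, threshold 0.05) and with permutation tests (every arrangement, or 100000 resamples) in Python 3.11.15. Shares are percentages of a library's summed cluster reads, in which a read may be counted more than once. Named clusters were the 10 with the highest share, the 3 with the smallest p per comparison, the 2 that the study names, the longest, the shortest and the 3 of widest spread, and clusters called in an alternative fit were added after their values were seen. The clusters described and the lists were chosen with earlier results of these data known. Same-numbered samples of a line were not taken as pairs, since the labels do not say that a number is a male. The correlations of their deviations ran from -0.405 to 0.450 over 7 pairs, too few to show whether they are paired. The study sampled each male in both periods. The comparisons within a line, High2 against Low1 and Low2 against High1, thus treat repeated samples of males as independent. So do High against Low, the limma fit of all 24 libraries and the sign-flip test. For all of these it is a limit of the p-values. That samples of a group are separate males rests on the study's methods. Gene and repeat content and cluster sequences were not analysed here.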

Additional observations from a re-analysis of the deposited data

Results flagged for a closer look

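Of 44 groups of library values examined for a library far from the rest, 1 stood out, where chance alone picks about 1 in 20. The share of chr7:4067-8848 in High1_1 was 22.8% of cluster reads, against 6.71% to 12.4% in the other 5 High1 libraries. High1_1 has the most cluster reads and belongs to sequencing pool 2. The reads of this cluster are part of that total, and its size factor, 1.03, lay below that of High1_6, 2.64. Whether depth or pool moves this share was not tested.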

How the results depend on the processing

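None of the 7 share differences passed the adjusted threshold under any alternative, the smallest adjusted p being 0.212. Differences that turned sign were Low2 against High1 (0.177 points without clusters that overlap predicted ones, 1.29 without the leading cluster, 6.56 by the record's treatment field, 0.0318 without High1_1 and Low2_3 or without pool 2), High2 against Low1 (-1.68 without the leading cluster), High against Low (-1.48 without the leading cluster, -2.74 by the treatment field), High2 against Low2 (-2.12 by the treatment field), Low2 against Low1 (4.74 by the treatment field, 1.28 without High1_1 and Low2_3) and High1 against Low1 (1.25 without those 2 libraries, 0.0244 without the 5 leading clusters). Leaving out each library in turn gave 0.686 to 7.17 points for High2 against Low1, -3.80 to 4.21 for Low2 against High1, -5.87 to 2.14 for High1 against Low1, 1.02 to 8.37 for High2 against Low2, 1.32 to 9.33 for High2 against High1, -4.19 to 2.44 for Low2 against Low1 and -0.166 to 3.69 for High against Low. The causes were not tested. Clusters called rose from 0 to 20 with only the compared groups, and to 18, 5 and 7 in the fits without 2 libraries or without pool 2, and remained 0 whichever single library was left out. Counts at an unadjusted p under 0.05 moved more. Leaving out 1 library gave 21 to 102 for High against Low (36), 26 to 66 for High2 against Low1 (43), 8 to 36 for Low2 against High1 (17), 12 to 57 for High1 against Low1 (21), 22 to 91 for High2 against Low2 (45), 18 to 49 for High2 against High1 (33) and 11 to 25 for Low2 against Low1 (18). The shares over all clusters beside the 49 and the 25 are not given here, so these counts have no background. High2 against Low1 reached 121 with only the compared groups, beside 29.6% of all clusters, and 20 by the treatment field, beside 5.72%. By that field, log2 differences of named clusters turned for chr18:33974002-33981018 in High2 against Low1 (-0.027), for chr19:16984097-16991027 in Low2 against High1 (0.047) and High2 against Low2 (-0.42), and in High2 against Low2 for chr14:10245038-10251014 (-0.40) and chr25:27671331-27689675 (-0.12). The density difference from predicted clusters turned to 0.12 with the lowest 25% of clusters dropped. With the replicate block (consensus correlation -0.0626) 0 clusters were called. In that fit 16 to 45 had an unadjusted p under 0.05, and the counts over all clusters are not given here. Depth limits the 34 clusters with fewer than 10 reads in some library, of which Low2_3 held 32.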
